A study of Gossypium barbadense with 4 samples.

Results

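The flavonoid pathway genes described here are 4 probe sets of the Affymetrix Cotton Genome Array, of 24029 probe sets on the array without its controls. They were found by words in the product descriptions of the study (chalcone, flavanone, flavonol, flavonoid or anthocyanidin), which cover 1439 probe sets. The 4 are a chalcone synthase (GenBank DT460560), a flavonoid 3',5'-hydroxylase (CO491937) and a pair described as dihydroflavonol 4-reductase (CO128009 and DT574906). A flavonol sulfotransferase-like gene (DN803199) also held one of the words, but it was not tied to a probe set and is not analysed here.

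Signals were measured at 0 DPA (days postanthesis) in anthers and ovules of Pima 57-4, a semigametic Pima cotton (Gossypium barbadense), and of Pima S-1, the non-semigametic cultivar from which it arose as a natural mutant. In semigamy the sperm and egg cells fuse but their nuclei do not. Both genotypes were started in a greenhouse and grown on in the field in 3 replicates, and the labels give no treatment. There was 1 array for each of 57-4 anthers, Pima S-1 anthers, 57-4 ovules and Pima S-1 ovules, hybridized with a pool of RNA from the 3 replicates, 10 flowers each. With 1 array per condition no error among replicates could be computed, so a difference between the genotypes within a tissue is given as a ratio with no test. In whole anthers and ovules, fewer cells of a type and less RNA per cell cannot be told apart.

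Flavonoids are made from phenylalanine through the general phenylpropanoid pathway. Chalcone synthase joins a phenylpropanoid unit with malonyl units and is the entry enzyme of the pathway, flavonoid 3',5'-hydroxylase is a cytochrome P450 that adds hydroxyl groups to the B ring, and dihydroflavonol 4-reductase carries out the first step committed to anthocyanins and proanthocyanidins. Flavonols are abundant in pollen and in the tapetum of many plants, and proanthocyanidins accumulate in the seed coat that forms from the outer layers of the ovule.

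The descriptions rest on sequence matches and differ in strength. The chalcone synthase and hydroxylase matches cover only a part of the protein, and the UniGene titles of these probe sets name no flavonoid enzyme. The UniGene titles of both probe sets described as dihydroflavonol 4-reductase name a cinnamoyl-CoA reductase, a related enzyme of lignin synthesis, so that their place in the flavonoid pathway is not settled by the annotation. The probes were designed on sequences of Gossypium hirsutum, and of Gossypium raimondii for CO128009, and not of Gossypium barbadense. The probe sets of chalcone synthase and DT574906 were designed for 1 transcript, while those of the hydroxylase and CO128009 can be reached by several. All 4 are on the study's list of genes changed in ovules and none is on its list for anthers. A lower signal in 57-4 ovules was thus part of how they came to have a name, and their ovule ratios are a description.

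In ovules all 4 probe sets had a lower signal in 57-4 than in Pima S-1, and the gap was widest for chalcone synthase. Its signal was 946 in 57-4 ovules, against 5009 in Pima S-1 ovules. The log2 ratio (57-4 over Pima S-1) was -2.40, which left 57-4 at 18.9% of the Pima S-1 signal. Of the 14707 probe sets measured in ovules (50 or more on either ovule array), 0.116% had a ratio as low or lower. A ratio as large in the opposite direction was found for 0.020%, so that 0.136% lay as far from 0 either way. The reductase CO128009 followed, with 635.5 in 57-4 ovules, against 1343 in Pima S-1 ovules (log2 ratio -1.08), and 3.43% of the probe sets had a ratio as low or lower.

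The other two members differed less. The hydroxylase had a signal of 860.5 in 57-4 ovules, against 1215 in Pima S-1 ovules (-0.50). The reductase DT574906 had 203 in 57-4 ovules, against 286 in Pima S-1 ovules (-0.49). Ratios as low as these were found for 15.2% and 15.4% of the probe sets, so both lie within the bulk of the array. At least a 2-fold decrease was thus found for 2 of the 4, against 4.14% of all probe sets measured in ovules, a difference to be read with the way the members were listed.

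In anthers, a tissue for which the study did not list them, the same 4 probe sets were again lower in 57-4, but none by 2-fold. Chalcone synthase had a signal of 1832 in 57-4 anthers, against 3097 in Pima S-1 anthers (log2 ratio -0.76). The reductase DT574906 was close to it in ratio, with 236 in 57-4 anthers, against 393 in Pima S-1 anthers (-0.73). For CO128009 the signals were 321 in 57-4 anthers, against 477 in Pima S-1 anthers (-0.57).

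The hydroxylase was the most even of the 4 in anthers, with 779 in 57-4 and 893 in Pima S-1 (-0.20). The share of all 15900 probe sets measured in anthers with a ratio as low or lower was 6.31% for chalcone synthase, 6.76% for DT574906, 11% for CO128009 and 31.6% for the hydroxylase. At least a 2-fold decrease was found for 0 of the 4, against 2.71% of all probe sets. Among brighter probe sets, with 200 or more on either array of the tissue, as the members have, 2.34% were at least 2-fold lower and 0.862% higher in anthers, and 5.32% lower and 3.62% higher in ovules. The median log2 ratio of the 4 was -0.65 in anthers, beside 0.0019 over all probe sets measured there, and -0.79 in ovules, beside 0.063.

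**Figure D1:**
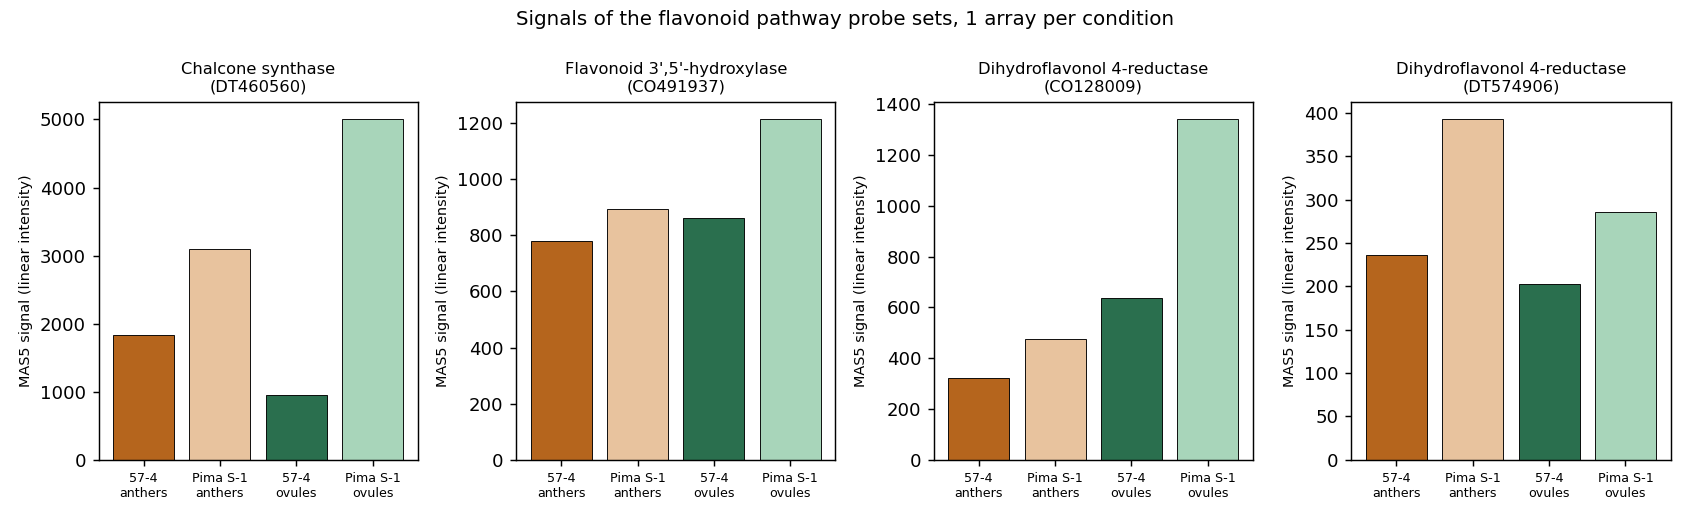
MAS5 signal (linear intensity, y axis) of each flavonoid pathway probe set on the 4 arrays, with 1 bar per array and no error bars, since each condition had 1 array. In each tissue the 57-4 bar is lower than the Pima S-1 bar, and the widest gap is that of chalcone synthase in ovules (946 against 5009).

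The members can be followed across the tissues in each genotype. All 4 had a log2 ratio below 0 in anthers, as did 49.8% of the probe sets measured there, and in ovules, as did 44.2%. In both tissues at once it was below 0 for 29.6% of the 13428 probe sets measured in both. The decrease was deeper in ovules than in anthers for 3 of the 4, and deeper in anthers for DT574906. The ovule ratio of chalcone synthase was lower than its anther ratio by 1.65 on the log2 scale, and 2.28% of the probe sets had a gap of that size or more in either direction. The corresponding gaps of the other members, -0.51 for CO128009, -0.30 for the hydroxylase and 0.24 for DT574906 (ovule minus anther ratio), were matched or exceeded by 37.0%, 57.4% and 64.6% of the probe sets. These gaps were not tested, as there is 1 array behind each signal.

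**Figure D2:**
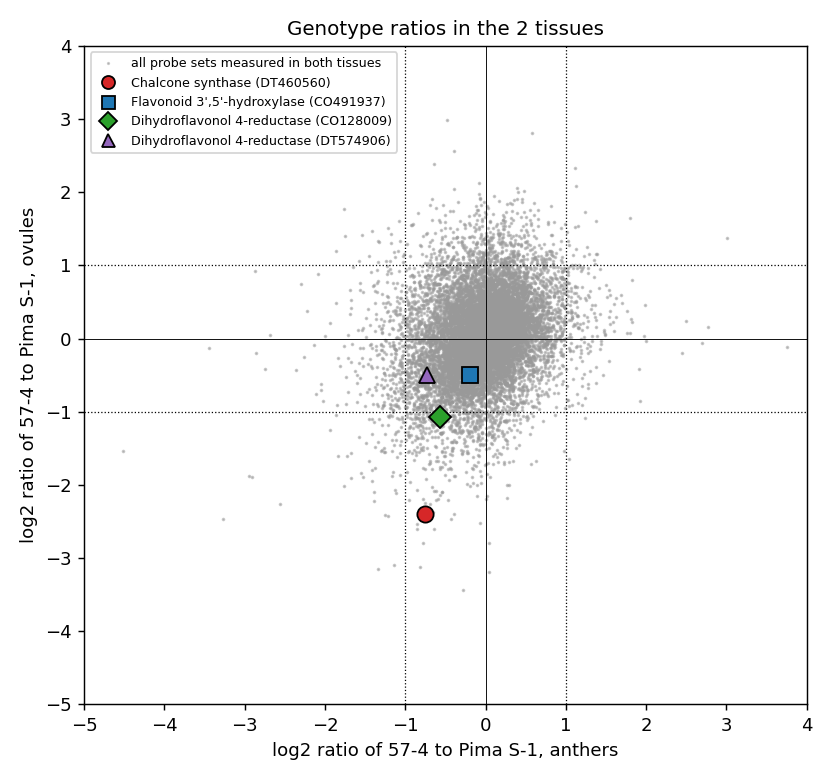
Log2 ratio of 57-4 to Pima S-1 in anthers (x axis) and ovules (y axis) for the 13428 probe sets measured in both tissues (grey points), with the 4 flavonoid pathway probe sets as coloured symbols and dotted lines at a 2-fold difference. All 4 lie in the lower left part, 3 of them within the cloud of all probe sets and chalcone synthase at its lower edge (-0.76 in anthers, -2.40 in ovules).

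The 57-4 and Pima S-1 arrays also differed in ways that are not confined to these genes. For the cotton control transcripts ss1, ubq11 and actin, the signal near the 3' end divided by that near the 5' end was 11.7 to 21.1 on the 57-4 arrays and 4.18 to 11.8 on the Pima S-1 arrays, and in each tissue it was higher in 57-4 for all of them. The 9 spiked-in bacterial and phage controls were also brighter with 57-4 RNA, by a median of 0.47 (log2) in anthers and 0.40 in ovules. After scaling on these controls, 3 of the 4 members were at least 2-fold lower in 57-4 anthers (chalcone synthase -1.23, DT574906 -1.21 and CO128009 -1.05) in place of 0. That scaling lowers the anther ratios of the array as a whole, to a median of -0.44, and 11.6% of all probe sets measured in anthers were then at least 2-fold lower. In a table of the study the ovule columns of all 4 members carry the opposite headings, and the deposited labels were used here. With the ovule columns exchanged, chalcone synthase would be higher in 57-4 ovules by 2.40 and CO128009 by 1.08. The part of the control differences in the member ratios was not tested.

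The genes were also compared between anthers and ovules, a contrast that was not used to choose them. This was fitted with limma over 17179 probe sets with tissue and genotype as terms. The fit leaves 1 residual degree of freedom, which is the interaction of tissue and genotype and not an error among replicates. Of all probe sets 4.84% were called higher in anthers and 4.61% lower at an adjusted p under 0.05.

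The members did not share a preferred tissue. CO128009 was lower in anthers than in ovules in both genotypes, with signals of 321 in anthers and 635.5 in ovules of 57-4, and 477 in anthers and 1343 in ovules of Pima S-1. Its mean difference, anthers minus ovules, was -1.24 ± 0.24 on the log2 scale (SE, 2 arrays per tissue), a 2.36-fold lower level in anthers, with an adjusted p of 0.042 by limma. The call was lost in 6 of 8 alternative settings, with limma adjusted p-values between 0.0031 and 0.36 over all 8. Only quantile normalization and scaling on the hybridization controls could change the mean difference, to -1.27 and -1.01. The other settings leave it at -1.24, so its direction there was fixed in advance. DT574906 had the opposite order, at 236 in anthers and 203 in ovules of 57-4 and 393 in anthers and 286 in ovules of Pima S-1 (0.34 ± 0.22, limma adjusted p = 0.38, 95% confidence interval from -0.22 to 0.89).

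The hydroxylase had a mean difference of -0.29 ± 0.22 (limma adjusted p = 0.45, interval from -0.86 to 0.27), with slightly lower anther signals in both genotypes. For chalcone synthase the mean difference was 0.13 ± 0.42 (limma adjusted p = 0.88, interval from -0.94 to 1.20). That small mean covers opposite differences, since its signal was 1.94-fold higher in anthers than in ovules of 57-4 and 1.62-fold lower in anthers than in ovules of Pima S-1. Among its 4 signals the order from high to low was Pima S-1 ovules, Pima S-1 anthers, 57-4 anthers and 57-4 ovules. Pima S-1 ovules were also the brightest sample for the hydroxylase and CO128009, while for DT574906 it was Pima S-1 anthers.

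**Figure D3:**
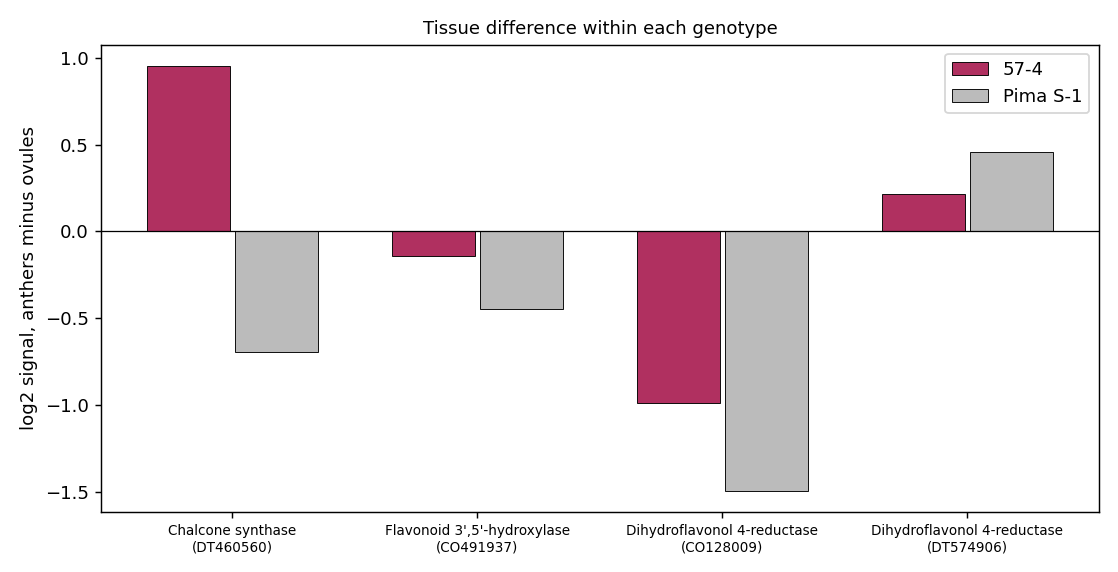
Difference in log2 signal between anthers and ovules (y axis, anthers minus ovules) for each flavonoid pathway probe set in 57-4 (dark bars) and Pima S-1 (grey bars), each bar from 2 arrays and with no error bar. CO128009 and the hydroxylase are below 0 and DT574906 above 0 in both genotypes, while chalcone synthase is above 0 in 57-4 (0.95) and below 0 in Pima S-1 (-0.69).

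Probe sets that share a UniGene cluster number with a member were also examined. There were 5, none with a product description. Most carry A1 in the identifier, where the members carry S1, and so may not read the same strand or transcript. In the cluster of the reductase DT574906, the other probe set had signals of 987 in 57-4 anthers, against 1158 in Pima S-1 anthers (-0.23), and of 713 in 57-4 ovules, against 743 in Pima S-1 ovules (-0.06). It was thus closer to even than DT574906 in both tissues, with the same higher signals in anthers. In the cluster of chalcone synthase, the other probe set was dim. Its signal was 5.6 in 57-4 anthers, against 61.1 in Pima S-1 anthers, while ovules had 85 in 57-4, against 31.8 in Pima S-1. It was at least 1.22-fold lower in 57-4 anthers but at least 1.70-fold higher in 57-4 ovules, where the member was lower. The other 3, in the clusters of the hydroxylase and CO128009, were under 50 on all 4 arrays. Among them, a probe set of the hydroxylase cluster carries S1, as the member does, and had signals of 5 to 21.1. The hydroxylase member, which several transcripts can reach, had 779 to 1215. Which transcripts give the member's signal was not tested.

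The pathway that feeds flavonoid synthesis was described by 6 probe sets of the study's lists. In anthers 2 of 6 were at least 2-fold lower in 57-4, beside 2.71% of all probe sets, and none higher, with a median log2 ratio of -0.79. These were a phenylalanine ammonia lyase (DN781686), the first enzyme of the phenylpropanoid pathway, and a cinnamate-4-hydroxylase (CO086087), the enzyme after it. DN781686 had a signal of 126 in 57-4 anthers, against 425 in Pima S-1 anthers (-1.76), while it had 81.2 in 57-4 ovules, against 87.5 in Pima S-1 ovules (-0.11). CO086087 had 190 in 57-4 anthers, against 382.5 in Pima S-1 anthers (-1.01), while it had 109 in 57-4 ovules, against 114 in Pima S-1 ovules (-0.07). Both are on the study's anther list and the other 4 on its ovule list, so a difference in that tissue was part of how each was named. DN781686 and CO086087 were nearly even in ovules, the tissue in which chalcone synthase was lowest. Neither is on the study's ovule list, while chalcone synthase is on that list only, so this contrast follows in part from the listing.

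A second cinnamate-4-hydroxylase (DT047397) had a ratio of -0.42 in anthers. In ovules it was -0.70, with a signal of 999.5 in 57-4, against 1618 in Pima S-1. A second phenylalanine ammonia lyase (CO092077) had ratios of -0.27 and -0.53. Acetyl-CoA carboxylase (AW187898), an enzyme that makes malonyl-CoA, had -0.71 and -0.58. Its name does not say whether it supplies chalcone synthase. The dehydroquinate dehydratase/shikimate dehydrogenase (DN817407), an enzyme on the way to phenylalanine, had -0.87 and -0.31. In ovules none of the 6 differed by 2-fold, beside 4.14% of all probe sets lower and 4.46% higher, and the median was -0.42.

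Phenylpropanoids also leave towards lignin and related compounds. Of 4 probe sets on that branch, 1 was at least 2-fold lower in 57-4 anthers (median -0.39) and none in ovules (median -0.68). The shares of all probe sets were 2.71% in anthers and 4.14% in ovules. The one was a cinnamyl alcohol dehydrogenase (DW486280), the last step to the lignin alcohols, at 19.8 in 57-4 anthers, against 113.9 in Pima S-1 anthers, at least 2.28-fold lower. A hydroxycinnamoyl transferase (DW520338) went the other way by less than 2-fold, at 0.43 in both tissues. A caffeic acid O-methyltransferase (DR457342) had -0.22 in anthers and -0.67 in ovules, and a phenylcoumaran benzylic ether reductase-like gene (CO127815) had -0.55 and -0.95. A pair of probe sets with a cinnamoyl-CoA reductase in the UniGene title carry other product descriptions. CO494639, described as an acidic chitinase, had 0.0046 in anthers and -0.43 in ovules, and DR454012, described as a homeobox protein, was under 50 on all 4 arrays.

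Cytochrome P450 enzymes such as the hydroxylase take electrons from NADPH-cytochrome P450 reductase and, in some cases, cytochrome b5. The reductase (AI730999) had a ratio of -0.47 in anthers, and of -0.72 in ovules. A cytochrome b5 (DT047754) had signals of 448.5 in 57-4 anthers, against 464 in Pima S-1 anthers (-0.05), and of 518 in 57-4 ovules, against 1164 in Pima S-1 ovules (-1.17). It was the member of this list past 2-fold in ovules, and another cytochrome b5 (CO085819) was the one in anthers (-1.15, with -0.39 in ovules). A further one (DW228504) had 0.0039 and -0.40. The photosystem II cytochrome b559 (DW236400) entered this list of 5 by its name only, with 0.14 and -0.60, and the list's median was -0.05 in anthers, against -0.60 in ovules. In each tissue 1 of the 5 was at least 2-fold lower in 57-4, beside 2.71% of all probe sets in anthers and 4.14% in ovules.

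Flavonoids are stored after conjugation with sugars, and glutathione S-transferases take part in their transport. Of 4 such probe sets, glucosyltransferase-11 (DT048637) was the only one of the 3 measured in anthers to reach a 2-fold decrease, with 103 in 57-4 and 261 in Pima S-1 (-1.35), and had -0.89 in ovules. An O-glucosyltransferase (DW232295) had 0.95 in anthers and -0.14 in ovules. The glutathione S-transferase DT049459 had -0.55 and -0.47. Another (DW510592) was measured in ovules only, at 738 in 57-4, against 1035 in Pima S-1 (-0.49). The list's median was -0.55 in anthers, against -0.48 in ovules, where none was past 2-fold. At least a 2-fold decrease was found for 2.71% of all probe sets in anthers and 4.14% in ovules. The descriptions do not say which of these enzymes act on flavonoids.

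In other plants, MYB, bHLH and WD-repeat proteins act in a common complex that switches on late flavonoid genes such as dihydroflavonol 4-reductase. Of 18 probe sets of these families, 17 were measured in anthers and 16 in ovules. In 57-4 anthers 3 had an increase of at least 2-fold and 2 a decrease (median -0.0072), beside 1.59% and 2.71% of all probe sets. In ovules 2 had an increase and 3 a decrease (median -0.63), beside 4.46% and 4.14%. The WD-repeat gene GHTTG1 (AF336281), named for a flavonoid and hair regulator of Arabidopsis, had signals of 286 in 57-4 anthers, against 294 in Pima S-1 anthers (-0.04), and of 195 in 57-4 ovules, against 480 in Pima S-1 ovules (-1.30). It was thus even in anthers and lower in 57-4 ovules, the tissue in which it was listed. The GhTTG4 probe sets had ovule ratios of -0.99 (DT545201) and -0.51 (CO121332), and anther ratios of -0.51 and 0.09.

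MYB127 (DT465545) had the highest ovule ratio of those with both signals at 50 or more, with 3945 in 57-4 ovules, against 1251 in Pima S-1 ovules (1.66) and 743 in 57-4 anthers, against 744 in Pima S-1 anthers (-0.0023). A MYB factor (CO124179) had -1.72 in anthers and -1.60 in ovules, and the bHLH factor CO093025 had 3.01 in anthers and was at least 2.60-fold higher in 57-4 ovules. A bHLH probe set with the same cluster number (CO125577) went the other way, at -0.17 in anthers and -0.76 in ovules. CO093025 carries A1 in its identifier and CO125577 carries S1, so they may not read the same strand or transcript. The other probe sets past 2-fold were GHMYB10 (AF336282, -1.29), MYB59 (DW497255, 1.54) and the bHLH factor CO071060 (1.20) in anthers, and MYB-related PHAN1 (DV848879), at least 2.18-fold lower in ovules. Which of these factors act on the flavonoid genes of cotton is not given by the descriptions.

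**Figure D4:**
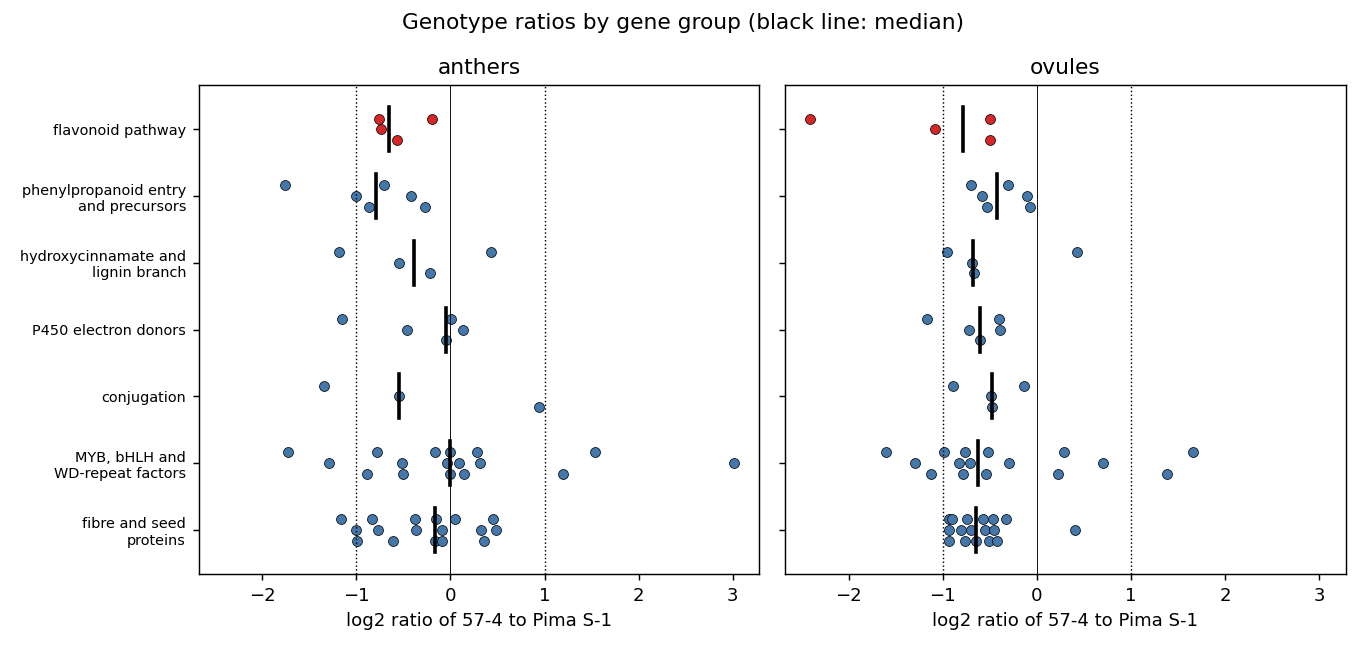
Log2 ratio of 57-4 to Pima S-1 (x axis) in anthers (left) and ovules (right) for each measured probe set of the flavonoid pathway (red) and of the other gene groups (blue), with black lines at group medians and dotted lines at a 2-fold difference. The flavonoid median is -0.65 in anthers and -0.79 in ovules, and the ovule medians of the other groups lie between -0.68 and -0.42.

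Over the 39 probe sets of these pathway lists, 7 of the 36 measured in anthers were at least 2-fold lower in 57-4 and 3 higher (median -0.24), and 4 of the 36 measured in ovules were lower and 2 higher (median -0.54). The background was 2.71% lower and 1.59% higher in anthers and 4.14% lower and 4.46% higher in ovules. These probe sets have a name because the study called them in a tissue, so the counts describe its lists and are not independent evidence of a direction. After scaling on the spiked-in controls, 13 were lower in anthers and 15 in ovules, beside 11.6% and 10.7% of all probe sets measured there under the same scaling.

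Genes described as fibre or seed proteins were set beside the flavonoid genes as a group from the ovule and its later products. They were not specific to ovules here, since they were also measured in anthers, and the group also holds storage and late embryogenesis proteins. Of the 18 probe sets, 17 are on the study's ovule list, so that a difference in ovules was part of how they were chosen. In ovules 0 of 17 measured reached a 2-fold decrease in 57-4, beside 4.14% of all probe sets, and 16 of 17 had a ratio below 0 (median -0.65), beside 44.2%. Their summed signal was 29207 in 57-4 ovules, against 44408 in Pima S-1 ovules. In anthers 2 of 17 measured reached a 2-fold decrease, beside 2.71%, and 12 of 17 had a ratio below 0 (median -0.16), beside 49.8%. Their summed signal was 23399 in 57-4 anthers, against 21174 in Pima S-1 anthers, and without its 2 brightest probe sets, fiber protein Fb9 (CA992712) and seed maturation protein PM37 (CA992849), it was 7332 in 57-4 and 8896 in Pima S-1. The direction in anthers thus rests on these, which were left out after the values were seen. The part of this group in the flavonoid ratios was not tested. No probe set in the parts of the study's lists used here was named for pollen, tapetum or exine, so the pollen content of the anther samples could not be set beside these values.

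Finally, the described probe sets most like each member were sought by the distance between their log2 signals, centred on the mean over the 4 arrays, among 1133 that reached 200 on 1 or more arrays. A distance of 0 would be the same pattern. The nearest to chalcone synthase was an ankyrin repeat BTB/POZ protein (DW489795, distance 0.35), with 143 in 57-4 anthers, against 341 in Pima S-1 anthers, while it had 87 in 57-4 ovules, against 463 in Pima S-1 ovules. A DEAD-box RNA helicase 7 (DT558313, 0.48) and a poly(A)-binding protein (CO089484, 0.51) came next. All 3 had their lowest signal in 57-4 ovules and their highest in Pima S-1 ovules, as chalcone synthase did. They were picked for a likeness to its pattern, so this shared order follows from the choice and is not separate evidence. The helicase signal in 57-4 ovules was only 39, under the signal floor used here. The candidates have a description because the study listed them as changed, so they do not stand for the whole array. The distances between chalcone synthase and the other flavonoid members were larger, 1.37 to DT574906, 1.47 to the hydroxylase and 1.66 to CO128009.

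For DT574906 the nearest was acetyl-CoA carboxylase (AW187898, distance 0.071), followed by a probe set of unknown product (DW506808, 0.10) and a two-component response regulator-like APRR7 (DT546725, 0.11). For CO128009 they were an H+-pyrophosphatase (AF009568, 0.19), a cysteine synthase (CO121286, 0.21) and a cytokinin dehydrogenase 5 (CO491450, 0.22). For the hydroxylase they were an unknown product (CO084935, 0.033), a glutenin subunit-like protein (CO085648, 0.063) and an adaptin-like protein (AI730975, 0.064). The pair of reductases was 1.63 apart, further than the hydroxylase was from either (1.06 from CO128009 and 0.74 from DT574906). These are likenesses over 4 arrays, and the hydroxylase varied by only 1.56-fold among them.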

How the data were processed

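RNA pooled from 3 biological replicates was hybridized to 1 Affymetrix Cotton Genome Array per condition. The deposited values are intensities, the MAS5 signals of the authors' Affymetrix software (version not given in the sources used here), each array scaled by the authors to a common mean: without the lowest and highest 2% of values it was 250.0 on every array. The table holds 24132 probe sets, of which 103 are controls.

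Signals under 50 were set to 50 before log2 ratios of 57-4 to Pima S-1 were taken within a tissue, counted at 2-fold. All 16 signals of the members are at or above 203, so this floor does not touch them. A fold with 1 signal under 50 is only a bound, and none is given with both under 50. Tissues were compared with limma 3.58.1 in R 4.3.3 (log2 signals, tissue and genotype, eBayes, Benjamini-Hochberg over 17179 probe sets that reached 50 on 1 or more arrays), which leaves out 6850 probe sets. The p-values, SEs and intervals rest on 1 residual degree of freedom, the interaction of tissue and genotype. To this eBayes adds 4.12 degrees of freedom borrowed from all probe sets tested. They do not measure a spread among replicates. The counting and the fit were run on simulated data to check the code. The simulated arrays had no interaction of tissue and genotype, and their tissue changes were larger than that of CO128009. That run therefore cannot say how reliable its call is.

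Names come from the study's lists, of which the ovule list was held in part. Named are all members, probe sets of their UniGene clusters, the pathway and marker lists, and the 3 nearest patterns. The members and lists were chosen with earlier results of these data known. The alternatives were the floor (none or 100), median centring, quantile normalization, scaling on hybridization controls, a log2 threshold of 1.5, single-transcript probe sets, exchanged ovule columns and, for the tissue fit, no genotype term, an intensity trend and no filter. The number of arrays limits the precision. No sequence of the probe sets was used here.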

Additional observations from a re-analysis of the deposited data

Results flagged for a closer look

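The tissue difference of chalcone synthase (DT460560) ran in opposite directions in the genotypes. Its log2 signal in anthers minus that in ovules was 0.95 in 57-4 and -0.69 in Pima S-1, each from 2 arrays. The difference between these values was not tested, since each signal comes from 1 array. With quantile normalization the values were 1.02 and -0.33, with scaling on the hybridization controls 1.14 and -0.41, and with the ovule columns exchanged -1.45 and 1.71.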

How the results depend on the processing

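No paired analysis was possible because each condition has 1 array and the labels give no replicate numbers to pair, while the tissue fit has genotype as a term and sets anthers and ovules of a genotype against each other. All 4 members stayed lower in 57-4 in both tissues under each alternative that kept the ovule labels. Only median centring, quantile normalization and scaling on the hybridization controls could change this. The floors, the log2 threshold and the choice of single-transcript probe sets leave each member's ratio as it is. Over the alternatives that kept the labels, the ovule ratio of chalcone synthase ranged from -2.78 to -2.22 and its anther ratio from -1.23 to -0.76. With the ovule columns exchanged, chalcone synthase was at 2.40 and CO128009 at 1.08 in ovules, the ovule median of the members was 0.79 with 0 at least 2-fold lower, and the anther minus ovule difference of chalcone synthase was -1.45 in 57-4 and 1.71 in Pima S-1. The pathway lists then had 2 lower and 4 higher in ovules, with a median of 0.54. The array-wide shares in ovules were then 4.46% lower and 4.14% higher. The number of members at least 2-fold lower in ovules was 1 with quantile normalization (CO128009 at -0.99, just short of 2-fold), with a log2 threshold of 1.5 and over the single-transcript probe sets, where the ovule median was -1.45 (fewer probe sets), and that in anthers was 3 with scaling on the hybridization controls. For the pathway lists, 4 were lower in anthers with a floor of 100, 13 with scaling on the hybridization controls and 2 at a log2 threshold of 1.5, while 15 were lower in ovules with that scaling and 1 at that threshold. Those higher in ovules numbered 5 with no floor, 1 with a floor of 100 and 1 at the threshold. After scaling on the hybridization controls, 11.6% of measured probe sets in anthers and 10.7% in ovules fell 2-fold or more in 57-4. These shares were 2.71% and 4.14% as reported, and 4.31% in ovules with quantile normalization. No share was taken for a changed floor, the log2 threshold or the single-transcript probe sets. The counts under those settings thus have no background beside them. The tissue fit called 0 members with no floor, a floor of 100, quantile normalization, no genotype term, all probe sets or the ovule columns exchanged. The adjusted p of CO128009 (limma) was then 0.21, 0.31, 0.054, 0.20, 0.36 and 0.16, and 1, 0, 1, 0, 0 and 1 of the members had an unadjusted p under 0.05. Over the whole array the tissue fit called 1624 probe sets as reported, 0 with no floor, a floor of 100 or all probe sets, 1004 with quantile normalization, 534 with no genotype term, 868 with the ovule columns exchanged, 2604 with scaling on the hybridization controls and 2717 with an intensity trend. The cause was not tested where none is given.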
